A study of Ovis aries with 48 samples.

Results

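Perirenal fat was compared with subcutaneous fat in 4 control female sheep, each of which gave both depots, so that 8 of the 48 libraries of the series entered the comparison. They were chosen by their labels as the control animals of the prenatal testosterone cohort, and the libraries were paired by sheep number (098, 131, 132 and 201). Their treatment label is control; whether their mothers received a vehicle, and the age of the animals, are not given in the labels. The same contrast was read in 4 prenatal T sheep, whose mothers received 100 mg testosterone propionate in corn oil into the muscle 2 times a week over gestational days 30 to 90. Small RNA was sequenced from whole pieces of fat, and 450 features were tested: 77 microRNAs, 159 small nucleolar RNAs (snoRNAs), 40 small nuclear RNAs (snRNAs) and 174 long non-coding RNAs (lncRNAs).

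Perirenal fat surrounds the kidney, and in newborn lambs it is largely brown, heat-producing fat that is replaced by white fat as the animal grows. Subcutaneous fat lies under the skin and stores lipid as white fat. MicroRNAs are short RNAs that guide Argonaute proteins to messenger RNAs and lower the output of those messages. Several of them are known to favour or hold back the formation of fat cells, and others mark the embryonic origin of a tissue. In bulk tissue, fewer cells of a type and less RNA per cell cannot be told apart.

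Levels are reads per feature after 1 scaling factor per library, set within each RNA class over the 8 libraries, and are called rescaled reads below. Log2 fold changes are perirenal over subcutaneous on log2(rescaled reads + 1), which makes changes of weakly expressed features look smaller than they are, and are given with their standard error (SE). A feature was called when the adjusted p from limma, with sheep as a block and Benjamini-Hochberg adjustment within the RNA class, was under 0.05. Perirenal libraries held 283463 to 1253005 reads and subcutaneous libraries 788704 to 1004894. Library numbers fell into an early set, up to 48, and a later set, from 81; each depot had 3 early libraries and 1 later one, which was sheep 098 in perirenal fat (also the shallowest library) and sheep 201 in subcutaneous fat. Nothing in the labels says what the sets stand for.

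Perirenal fat held less miR-221, miR-23a, miR-362, miR-103 and miR-17 than subcutaneous fat, and more miR-143, miR-29b and 9 microRNAs of the imprinted DLK1-DIO3 region. Of the 450 features, 26 (5.78%) were called, 17 higher (3.78%) and 9 lower (2%) in perirenal fat. MicroRNAs made up most of them, with 17 called of 77 (22.1%), 12 higher (15.6%) and 5 lower (6.49%). Of these, MIR29B-1 and MIR29B-2 have identical reads; counted once, they leave 25 calls in all and 16 among microRNAs, 11 of them higher. Of the lncRNAs, 8 of 174 (4.6%) were called, 5 higher (2.87%) and 3 lower (1.72%). A single snoRNA of 159 (0.629%) was called, and lower. The lower lncRNAs LOC105605445 and LOC105609544 span MIR221 and this snoRNA, in the same order. Their reads cannot be told apart from those of the small RNAs, so these calls may not be separate measurements. No snRNA of 40 was called by limma, edgeR or DESeq2, and 5 had an unadjusted limma p under 0.05. As deposited 10 of 41 snRNAs (24.4%) were called higher, where 48 of all 453 features were. With CPM within each class 5 of 50 snRNAs (10%) were, where 28 of all 513 features were. Both scales moved the median of all features above 0. Without sheep 132, 5 of 37 snRNAs were called higher (13.5%) and 1 lower (2.7%). The depots did not overlap in any library for 22 of the 26 called features, where 7.56% of all features lay higher without overlap and 9.33% lower. In 25 of the 26, all 4 sheep differed in the same direction.

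**Figure D1:**
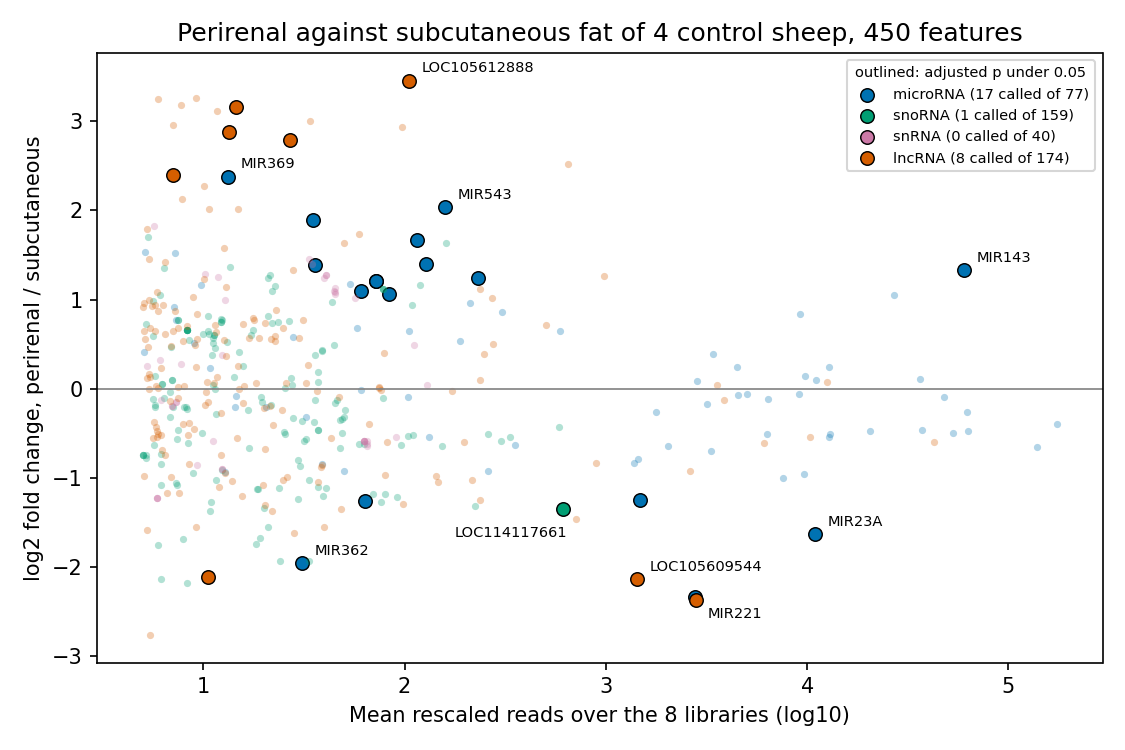
Log2 fold change of perirenal over subcutaneous fat (vertical axis) against the mean of rescaled reads over the 8 libraries (horizontal, log10) for the 450 features tested. Outlined points are the 26 called at an adjusted p under 0.05; called microRNAs include the abundant MIR143 above 0 and MIR221 and MIR23A below 0.

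The number of calls depended on single sheep. Without sheep 098 there were 47 calls, without sheep 201 there were 10, and without sheep 131 there were 3 (MIR221, MIR362 and MIR543). Without sheep 132 there were 6, none of them among the 26. These 6 were all snRNAs, 5 higher and 1 lower. With a term for the library set, which leaves the fold changes as they are, 84 features were called, all 26 among them, 38 higher and 46 lower. In 1 fit over all 4 RNA classes none was called, with 91 at an unadjusted p under 0.05. The split of calls also followed the scaling: the values as deposited, scaled within each depot, gave 48 higher and 4 lower with the median of all features moved to 0.37, and CPM within each class gave 28 higher and 5 lower with a median of 0.27, against a median of -0.0076 in the rescaled values.

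**Figure D2:**
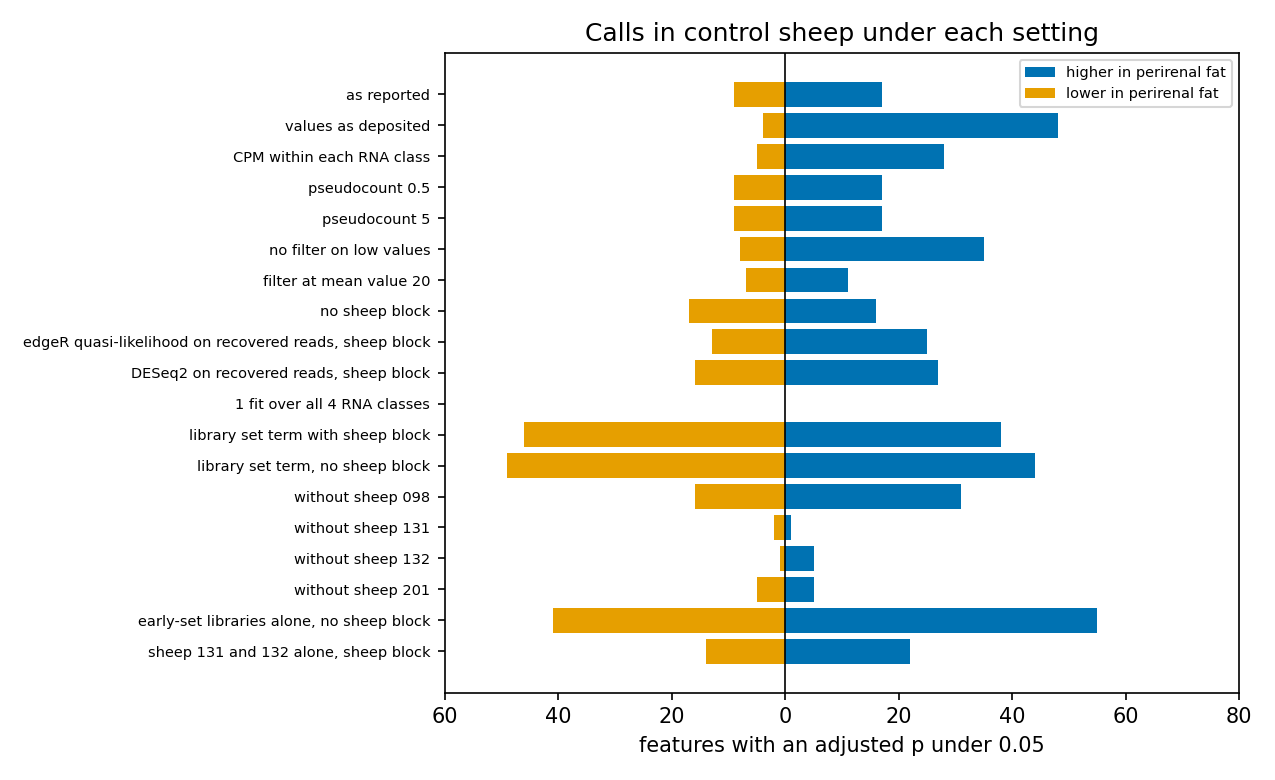
Number of features called in control sheep under each setting, higher in perirenal fat to the right and lower to the left of 0. The bars run between 0 calls in 1 fit over all classes and 96 in the early libraries alone with the sheep block left out too (55 higher, 41 lower); the top bar is the result reported, 17 higher and 9 lower.

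The microRNA with the lowest adjusted p was MIR221, which is known to lower KIT and the cell cycle inhibitor CDKN1B and has been linked to inflamed fat. Perirenal fat held 774, 1394, 660 and 851 rescaled reads of MIR221 in sheep 098, 131, 132 and 201, against 6832, 4226, 3428 and 4072 in subcutaneous fat of the same sheep. Every perirenal library lay below every subcutaneous one. The log2 fold change was -2.34 ± 0.37 (SE, n = 4 sheep; limma adjusted p = 0.00253). The lncRNA LOC105605445, within which MIR221 lies in the reference gene table, fell as well, by 2.37 on the log2 scale (SE 0.51, limma adjusted p = 0.0305). It had 24107 reads over the 8 libraries and MIR221 had 19051, and reads of the one cannot be told apart from reads of the other.

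MIR23A, of the miR-23a/27a/24 cluster, showed 2966, 6979, 5351 and 6236 rescaled reads in perirenal fat, against 16624, 14824, 23581 and 11105 in subcutaneous fat. No library of one depot reached the other. MIR23A fell by 1.64 (log2, SE 0.39, limma adjusted p = 0.0168). Of the 3 members of the miR-23/27/24 clusters tested, MIR23A was the only one called by limma or edgeR (DESeq2 also called MIR23B), and the median log2 fold change was -0.95 against -0.06 over all microRNAs; MIR23B had a log2 fold change of -0.95 (limma adjusted p = 0.0791) and MIR27A one of -0.51 (0.338). MIR23A was not called with the values as deposited, or without sheep 131 or 132.

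MIR362, whose gene lies inside the chloride transporter gene CLCN5, had 3.87, 15, 19.4 and 13.6 rescaled reads in perirenal fat and 43.8, 35.2, 74.2 and 42.5 in subcutaneous fat. The depots were apart in every library, at low levels, with a log2 fold change of -1.96 ± 0.43 (SE, limma adjusted p = 0.0105). MIR103, which is encoded within the pantothenate kinase gene PANK3 and is known in mice to dampen insulin sensitivity through caveolin-1, had 678, 1073, 761 and 943 rescaled reads in perirenal fat and 2096, 1796, 3034 and 1487 in subcutaneous fat. Its perirenal libraries were again all below the subcutaneous ones, with a log2 fold change of -1.26 ± 0.37 (SE, limma adjusted p = 0.0314). MIR17, the first member of the proliferation-linked miR-17-92 cluster, had 23.2, 41.1, 38.9 and 39.4 rescaled reads in perirenal fat and 77, 58.6, 156 and 74.6 in subcutaneous fat (log2 fold change -1.27 ± 0.38 SE, limma adjusted p = 0.0314). It too did not overlap. MIR103 and MIR17 were not called as deposited, with CPM, or without sheep 098, 131 or 132, and MIR17 was not called without sheep 201 or in the early libraries alone without the block.

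MIR143 was among the most abundant microRNAs. It is strongly expressed in smooth muscle, favours fat cell formation in cultured preadipocytes and impairs insulin signalling in mouse liver. Perirenal fat held 34364, 86601, 103507 and 119623 rescaled reads of MIR143 in sheep 098, 131, 132 and 201, against 29842, 24671, 65861 and 19067 in subcutaneous fat. All 4 sheep were higher in perirenal fat, but the depots overlapped because the perirenal library of sheep 098 lay below the subcutaneous library of sheep 132. The log2 fold change was 1.33 ± 0.41 (SE, limma adjusted p = 0.033), and 1.64 without sheep 098. As a share of microRNA reads, MIR143 made up 3.72, 9.88, 14.7 and 15.3% in perirenal fat and 3.17, 2.49, 7.26 and 2.11% in subcutaneous fat; the exact sign-flip permutation test over the 4 sheep, two-sided, gave the smallest p that 4 pairs allow, which is above 0.05. MIR143 was not called without sheep 131, 132 or 201 or without the sheep block. MIR145, the partner of MIR143 in the same cluster, is not analysed here, so that smooth muscle and pericytes were represented by MIR143 alone.

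The miR-29 family is known to repress collagen messages and insulin signalling in cultured fat cells. MIR29B-1 and MIR29B-2 carried identical reads in every library and count as 1 measurement. They had 65.8, 120, 106.2 and 113 rescaled reads in perirenal fat and 31.9, 36.6, 64 and 42.5 in subcutaneous fat. The lowest perirenal library stood just above the highest subcutaneous one, and the log2 fold change was 1.20 ± 0.35 (SE, limma adjusted p = 0.0314). MIR29A, the other family member tested, had a log2 fold change of -0.70 (limma adjusted p = 0.201). The MIR29B call was lost when any 1 sheep was left out.

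**Figure D3:**
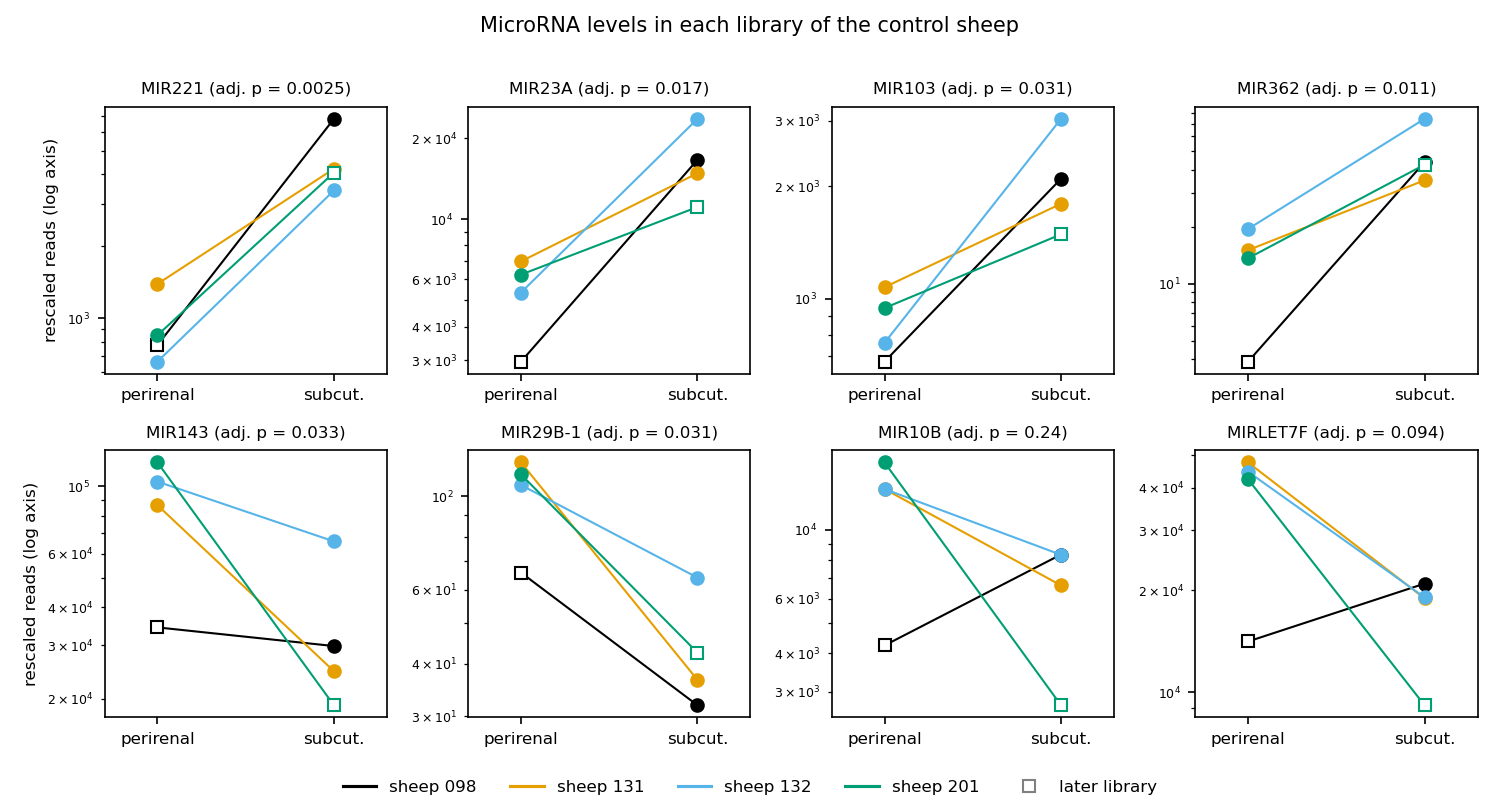
Rescaled reads (log axis) of 8 microRNAs in each control sheep, perirenal left and subcutaneous right, with a line for each sheep and open squares for the later library of each depot. MIR221, MIR23A, MIR103 and MIR362 are lower in perirenal fat in every sheep; MIR10B and MIRLET7F, which were not called, are lowest in the later library of both depots.

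The DLK1-DIO3 region is imprinted: the protein-coding genes DLK1, a repressor of fat cell formation, and DIO3, which inactivates thyroid hormone, are expressed from the chromosome inherited from the father, and its many non-coding RNAs from the one inherited from the mother. In sheep the region is known for the callipyge mutation, which enlarges hindquarter muscle and reduces fat. Of 54 microRNAs of the tables that lie between DLK1 and DIO3 in the reference gene table, 29 passed the filter on low levels. Of these, 9 (31.0%) were called higher in perirenal fat and 0 lower, where 15.6% of all microRNAs were called higher. The log2 fold change was above 0 for 23 and below 0 for 6, with a median of 0.77 against -0.06 over all microRNAs tested. The depots did not overlap, perirenal higher, for 8 of the 29 (27.6%), against 13% of all microRNAs. With a term for the library set 13 were called higher and MIR3958 lower, where 26% of all microRNAs were called higher and 20.8% lower. Leaving out the sheep block as well added MIR380 and MIR412 as lower, where 18.2% of all microRNAs were called lower. Without the block alone 8 were called higher and MIR3958 lower, where 13% of all microRNAs were called higher and 10.4% lower.

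Within the cluster, MIR369 had the highest log2 fold change, at 2.38 ± 0.50 (SE, limma adjusted p = 0.0105), with 7.74, 22.9, 34.7 and 27.2 rescaled reads in perirenal fat and 3.98, 1.46, 6.1 and 2.3 in subcutaneous fat. The depots did not overlap, although the subcutaneous values were low. MIR543 had 588, 96.4, 190 and 189 rescaled reads in perirenal fat, against 50.5, 46.9, 46.8 and 62 in subcutaneous fat. Its log2 fold change was 2.03 ± 0.42 (SE, limma adjusted p = 0.0105), with the perirenal library of sheep 098 far above the other perirenal libraries. MIR370 was spread in the same way, with 383, 98.8, 131 and 101.8 rescaled reads in perirenal fat and 41.2, 27.8, 43.7 and 91.9 in subcutaneous fat (log2 fold change 1.67 ± 0.45 SE, limma adjusted p = 0.0253). MIR370 was not called without sheep 098, 131 or 132. The opposite held for MIR3959, which had 3.87, 63.2, 75 and 98.2 rescaled reads in perirenal fat and 6.64, 13.2, 10.2 and 9.19 in subcutaneous fat. Sheep 098 was the only sheep with less MIR3959 in perirenal fat, but its perirenal value was near the floor of this shallow library. Its direction therefore rests on very few reads. The log2 fold change was 1.90 ± 0.57 (SE, limma adjusted p = 0.0316) with sheep 098 and 2.68 without it.

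MIR382 had 155, 223, 167 and 189 rescaled reads in perirenal fat and 75.7, 98.2, 39.6 and 72.3 in subcutaneous fat (log2 fold change 1.40 ± 0.34 SE, limma adjusted p = 0.0175). MIR495, known in mice to restrain the growth of new vessels, had 27.1, 53, 75.7 and 55.9 rescaled reads in perirenal fat and 13.3, 19, 23.4 and 19.5 in subcutaneous fat (log2 fold change 1.38 ± 0.36 SE, limma adjusted p = 0.0253). Both were separated between the depots in every library. MIR493, MIR411A and MIR329B made up the rest, with log2 fold changes of 1.24, 1.09 and 1.07 (limma adjusted p = 0.0314, 0.0456 and 0.0359, in the same order). At the other end MIR412, MIR3958 and MIR380 had log2 fold changes of -0.93, -0.92 and -0.85 (limma adjusted p = 0.165, 0.0791 and 0.144). MIR127, which is transcribed antisense to RTL1, stood at 0.08 (limma adjusted p = 0.891). The estimates of neighbours in gene order therefore differed in sign within 1 cluster, as the plot in gene order shows. None of those below 0 was called in the reported fit. In prenatal T sheep MIR412, MIR3958 and MIR380 had log2 fold changes of -0.30, 0.01 and -0.09. A difference between neighbours was not tested.

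Added up, the cluster took 0.884, 0.462, 0.723 and 0.655% of microRNA reads in perirenal fat and 0.361, 0.369, 0.369 and 0.669% in subcutaneous fat. The 3 early subcutaneous libraries lay below every perirenal library, and the later one, sheep 201, lay within the perirenal range. The later library was the highest of each depot, as it was for MIR543 and MIR370. The exact sign-flip permutation test gave p = 0.25, two-sided, and 4 pairs cannot reach 0.05. The number of cluster microRNAs called higher was 7 of 27 without sheep 098 and 5 of 28 without sheep 201. Of all microRNAs, 16% and 6.58% were called higher in these fits. Without sheep 131 it was 1 of 29 and without sheep 132 it was 0 of 28, where 1.32% and 0% of all microRNAs were. In the early libraries alone without the sheep block it was 10 of 27, where 20% of all microRNAs were. As deposited it was 20 of 29, where the median was 1.53 and 41.6% of all microRNAs were called higher. Of the snoRNAs and lncRNAs of the region, 3 of 35 passed the filter; none was called by limma, edgeR or DESeq2, and 2 had an unadjusted limma p under 0.05. Without the sheep block, LOC114109209 and LOC105606646 were called higher with a term for the library set and in the early libraries alone. The snoRNA LOC114109209 had 4.43, 4.41, 8.57 and 17.9 rescaled reads in perirenal fat and 2.88, 0.652, 0.875 and 2.91 in subcutaneous fat (log2 fold change 1.71, limma adjusted p = 0.223). LOC105606646, a locus that spans 8 of the 9 called microRNAs and whose reads cannot be told apart from theirs, had a log2 fold change of 1.01 (limma adjusted p = 0.185).

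**Figure D4:**
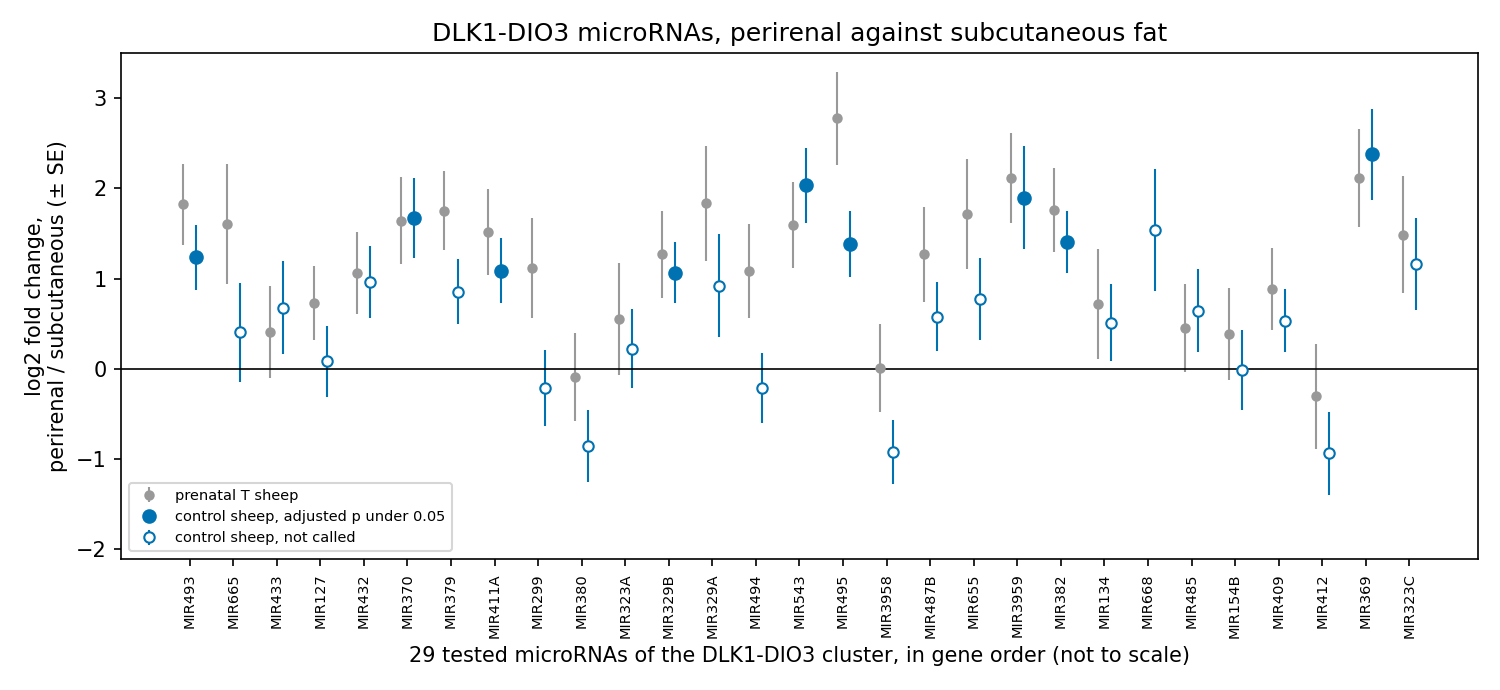
Log2 fold change of perirenal over subcutaneous fat (± SE) of the 29 tested DLK1-DIO3 microRNAs in gene order, in prenatal T sheep (grey) and control sheep (blue, filled where called). In control sheep 23 of 29 points lie above 0, between -0.93 for MIR412 and 2.38 for MIR369; MIR668 was not tested in prenatal T sheep.

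Groups of microRNAs with known roles in fat were small, and 22.1% of all microRNAs were called, with a median of -0.06. Of 14 microRNAs that favour fat cell formation, 3 (21.4%) were called, a share near that of all microRNAs: MIR143 higher and MIR103 and MIR17 lower. Their median was -0.53, and 0.35 as deposited. Of 11 that hold it back, MIR221 (9.09%) was called, lower, with a median of -0.39 (0.48 as deposited). Of 23 listed as promoting brown or beige fat, only MIR30B, MIR30C, MIR26A and MIR26B could be tested, so that this role was read through 4 members alone. None of the 4 was called by limma or edgeR. MIR30B had an unadjusted limma p under 0.05 and was called lower by DESeq2 and with a term for the library set. Its log2 fold change was -0.93 (limma adjusted p = 0.0791), and that of MIR26A, which favours browning of cultured human fat cells, was -0.10 (0.849). Of 8 that restrain brown or beige fat, MIR221 (12.5%) was called, lower, with a median of -0.49 (0.39 as deposited). Of 15 linked to insulin and glucose 4 (26.7%) were called, again near the share of all microRNAs: MIR143 and the MIR29B pair, which is 1 measurement, higher and MIR103 lower (median -0.10, as deposited 0.78). Of 5 linked to inflammation and fibrosis, the same MIR29B pair was called higher and MIR221 lower (median -0.70, as deposited 0.18). Of 4 linked to proliferation, MIR17 was called, lower (median -0.38, as deposited 0.50).

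HOX-cluster microRNAs carry the positional identity of a tissue, and MIR10A and MIR10B were the members tested; neither was called by limma, edgeR or DESeq2, and 0 had an unadjusted limma p under 0.05. MIR10B had 4235, 13558, 13556 and 16518 rescaled reads in perirenal fat and 8330, 6620, 8312 and 2714 in subcutaneous fat. It was higher in perirenal fat in 3 of 4 sheep, and the later library was the lowest in both depots. MIR10B had a log2 fold change of 0.84 ± 0.49 (SE, limma adjusted p = 0.235); with a term for the library set the SE was 0.23 and the adjusted p 0.00927, and it was also called higher as deposited, without sheep 098 and in the early libraries alone without the block. MIR10A had a log2 fold change of -0.07 (limma adjusted p = 0.9).

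The let-7 microRNAs promote differentiation and slow growth. None of 7 was called by limma or edgeR, 1 (MIRLET7F) had an unadjusted limma p under 0.05, and DESeq2 called it higher. With a term for the library set and the sheep block 5 of 7 were called, MIRLET7F higher and MIRLET7C, MIRLET7A, MIRLET7I and MIRLET7B lower, where 26% of all microRNAs were called higher and 20.8% lower. Without the block that term left MIRLET7F alone. Without sheep 098 MIRLET7F was called higher and MIRLET7B lower (log2 fold change -1.17), and as deposited MIRLET7F and MIRLET7G were called higher. MIRLET7F had 14123, 47468, 44581 and 42366 rescaled reads in perirenal fat and 20897, 18913, 19037 and 9168 in subcutaneous fat. As with MIR10B, the later library was the lowest of each depot, and 3 of 4 sheep were higher in perirenal fat. The log2 fold change was 1.05 ± 0.43 (SE, limma adjusted p = 0.0936), and 1.52 without sheep 098 (limma adjusted p = 0.000956). MIRLET7A was the most abundant microRNA by mean share, at 15.2 to 24.7% of microRNA reads in perirenal fat and 14.2 to 24.8% in subcutaneous fat, with a log2 fold change of -0.39 (limma adjusted p = 0.328). The family's median was -0.39, and 0.48 as deposited.

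Markers of other cell types were read for cells that a piece of fat can hold. The kidney tubule microRNA MIR194 stood at 96.3 to 135 CPM of microRNA reads in perirenal fat and 81.3 to 195 CPM in subcutaneous fat (log2 fold change -0.09, limma adjusted p = 0.861). The striated muscle microRNA MIR133 stood at 317 to 2573 CPM in perirenal fat, highest in sheep 132, and at 268 to 881 CPM in subcutaneous fat (log2 fold change 0.65, limma adjusted p = 0.379). The epithelial MIR200B, at 7.74, 25.3, 3.47 and 6.45 rescaled reads in perirenal fat and 0, 10.3, 2.03 and 2.3 in subcutaneous fat, had a log2 fold change of 1.52 (limma adjusted p = 0.0602). MIR200B was called higher with CPM (limma adjusted p = 0.0174), as deposited (0.00793), with a term for the library set and the sheep block (0.0227) and without sheep 098 (log2 fold change 0.93, 0.013), and not by edgeR; DESeq2 gave it no adjusted p. MIR200C had one of -0.08 (0.9). MIR150 of lymphocytes was at 0.39 (limma adjusted p = 0.54) and was called higher, among the alternatives run, only as deposited. MIR218A, of neurons and mesenchyme, was at 1.18 (limma adjusted p = 0.0791). It was called higher with CPM (0.038), as deposited (0.00437), with a term for the library set (0.0368 with the block) and without sheep 098 (0.0403). The mesenchymal list of 3, with MIR199A and MIR152 besides MIR218A, had a median of -0.48 and no call; with a term for the library set MIR152 was called lower, at -0.83 (limma adjusted p = 0.04 with the block). Markers of endothelium and erythrocytes are not analysed here. The part of these cells in the called differences was not tested.

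The share of reads in each RNA class overlapped between the depots, for snoRNAs only through the later perirenal library, sheep 098. MicroRNAs made up 84.2 to 88.5% of reads in perirenal fat and 84.7 to 88.8% in subcutaneous fat, and the 4 classes gave exact sign-flip permutation p-values between 0.375 and 0.625. Sheep 132 stood out in perirenal fat with 0.927% snRNA reads, against 0.0671 to 0.353% in the other perirenal libraries and 0.0969 to 0.203% in subcutaneous fat. The perirenal library of sheep 098 held 2.42% snoRNA reads, against 0.335 to 0.459% in the other perirenal libraries.

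The called snoRNA, LOC114117661, had 359, 317, 308 and 383 rescaled reads in perirenal fat and 1003, 959, 774 and 778 in subcutaneous fat. Its libraries were tight within each depot and far apart between them, with a log2 fold change of -1.36 ± 0.15 (SE, limma adjusted p = 0.0188). It lies within the lncRNA LOC105609544, together with the snoRNAs LOC114117662 and LOC114117663. LOC105609544 had 895, 400, 408 and 498 rescaled reads in perirenal fat and 2601, 2487, 1880 and 2280 in subcutaneous fat, and fell by 2.14 (log2, SE 0.38, limma adjusted p = 0.0193). It counted 12276 reads over the 8 libraries and its 3 snoRNAs 6532, 3383 and 2346, which together nearly make up the host count. Reads of the host cannot be told apart from those of the snoRNAs, so nearly the same reads were counted in both classes. Their fold changes differ with the scale of the class. The deposited perirenal scale lay 0.26 log2 units above the common scale for lncRNAs and at -0.13 for snoRNAs. As deposited, the log2 fold change was -1.63 for LOC105609544 and -1.61 for LOC114117661. Neither LOC105609544 nor LOC114117661 was called with CPM. snoRNAs guide the chemical modification of ribosomal and other RNAs; of 26 snoRNAs hosted in ribosomal protein genes none was called by limma, edgeR or DESeq2 and 3 had an unadjusted limma p under 0.05, with a median of -0.35 against -0.20 over all snoRNAs. With a term for the library set 6 of the 26 were called lower, where 12.6% of all snoRNAs were. In the early libraries alone without the sheep block 7 of 24 were called lower and 1 higher, where 12.7% of all snoRNAs were called lower and 13.3% higher.

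Among lncRNAs, whose reads in a small RNA library are fragments, LOC105612888 had the highest fold change. It had 57.7, 400, 137 and 186 rescaled reads in perirenal fat and 25.8, 13.4, 7.58 and 11.6 in subcutaneous fat (log2 fold change 3.46 ± 0.61 SE, limma adjusted p = 0.0193). The log2 fold change was 4.17 without sheep 098 and 2.95 without sheep 131. LOC105616860, a neighbour of the endothelial cadherin gene CDH5, had 9.39, 62.4, 10.6 and 25.9 rescaled reads in perirenal fat and 2.87, 3.57, 0 and 0.83 in subcutaneous fat (log2 fold change 3.16 ± 0.53 SE, limma adjusted p = 0.0193). Both were separated in every library. LOC114115610 and LOC114111513 had log2 fold changes of 2.88 and 2.79 (limma adjusted p = 0.0227 and 0.0193), with overlap only for LOC114115610. LOC114110677, named after its values were seen to complete the count of 5, was at 2.39 (limma adjusted p = 0.0227). LOC101111367 was lower, at 1.34, 4.16, 4.93 and 3.24 rescaled reads in perirenal fat and 17.2, 12.5, 26.5 and 14.9 in subcutaneous fat (log2 fold change -2.12, limma adjusted p = 0.0227). Its perirenal values were near the floor. None of these lncRNA calls was kept without sheep 131, 132 or 201.

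The contrast was then read in the 4 prenatal T sheep, other animals with no library in common and all of the early set. There 99 of 421 features (23.5%) were called, 60 higher (14.3%) and 39 lower (9.26%) in perirenal fat. All 26 features called in control sheep had the same sign in prenatal T sheep, and 18 were also called there in the same direction, which is 69.2% of the control calls and 18.2% of the prenatal T calls. No feature was called in opposite directions. MIR221 averaged 825 ± 459 rescaled reads in perirenal and 3588 ± 522 in subcutaneous fat of prenatal T sheep, and 920 ± 326 and 4640 ± 1502 in control sheep (SD, n = 4 each). Its log2 fold changes were -2.26 in prenatal T sheep and -2.34 in control sheep. For MIR23A they were -1.70 in prenatal T sheep and -1.64 in control sheep, and for MIR369 they were 2.11 in prenatal T sheep and 2.38 in control sheep.

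Features called in prenatal T sheep mostly leaned the same way in control sheep. Of microRNAs 37% were called in prenatal T sheep; 28 of those called were tested in both, of which 28 had the same sign in control sheep and 12 were called. Of snRNAs 55.6% were called in prenatal T sheep, 20 in number, and 20 had the same sign in control sheep, where none was called by limma, edgeR or DESeq2. They are not 20 separate measurements: grouped where reads in each prenatal T library lay within 10% or 3 reads of another's, they formed 7 groups, 5 higher and 2 lower, the largest of 7 snRNAs. Of 33 DLK1-DIO3 microRNAs tested in prenatal T sheep, 16 were called higher (21% of all microRNAs were) and 0 lower, with a median of 1.27, against 9 of 29 and 0.77 in control sheep. Of 7 let-7 members MIRLET7B, MIRLET7C and MIRLET7A were called lower in prenatal T sheep, where 16% of all microRNAs were, at log2 fold changes of -1.62, -1.42 and -1.06, and had log2 fold changes of -0.66, -0.47 and -0.39 in control sheep. Of the region's snoRNAs and lncRNAs, 5 of 6 were called higher in prenatal T sheep, LOC105606646 among them at 2.19, where 10.6% of all snoRNAs and 9.88% of all lncRNAs were.

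The difference between the contrasts, prenatal T minus control sheep, was tested in 1 fit over 16 libraries. No feature of 434 was called by limma, edgeR or DESeq2, and 7 had an unadjusted limma p under 0.05. MIR495 had log2 fold changes of 2.78 in prenatal T sheep and 1.38 in control sheep, with a difference of 1.45 ± 0.65 (SE, limma adjusted p = 0.758). MIR362 had -0.65 in prenatal T sheep and -1.96 in control sheep, with a difference of 1.35 ± 0.65 (SE, limma adjusted p = 0.758). A difference that misses the threshold does not show that the contrasts are equal. The later libraries were all from control sheep; with a term for the library set no feature was called either, with 32 at an unadjusted limma p under 0.05, and without sheep 132 there was 1 call, the snRNA LOC114117060, named after its value was seen.

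**Figure D5:**
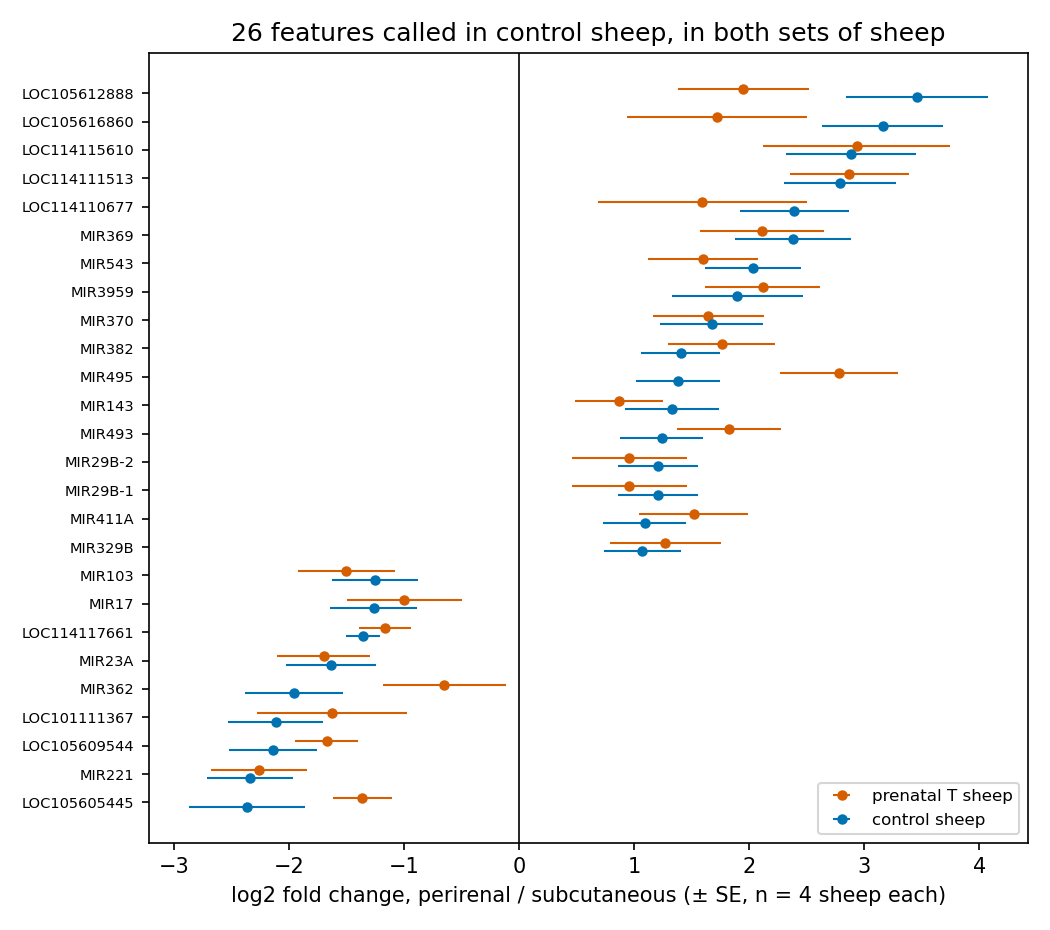
Log2 fold change of perirenal over subcutaneous fat (± SE, n = 4 sheep each) of the 26 features called in control sheep, in prenatal T sheep (orange) and control sheep (blue). All 26 lie on the same side of 0 in both; MIR362 is at -0.65 in prenatal T sheep and -1.96 in control sheep.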

How the data were processed

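Small RNA libraries were made from total RNA of fat by a ligation kit, per the labels' protocols. The submitters' processing notes list cutadapt 3.2 with STAR 2.6.0c and with featureCounts 1.6.1; no build is stated in the labels or file headers. The authors deposited 1 table of signal for each of 4 RNA classes, in which reads of a feature were divided by a factor for the library that had been set within its depot. Whole reads were recovered from these steps (tolerance 1e-05, 100% of values) and used for depth, CPM, edgeR 4.0.16 and DESeq2 1.42.0. The deposited microRNA scale lay 0.44 log2 units above the common scale in perirenal and -0.44 in subcutaneous libraries, so the 8 columns of each table were first multiplied to a common median ratio. Features with a mean of at least 5 were fitted in R 4.3.3 with limma 3.58.1 (trend, log2(value + 1), sheep as a block), 1 fit per class, with adjustment within class and calls at 0.05. No library column of these tables was left out. Steps were tested on simulated data, which held no differences between sheep. They recovered 15 of 58 features changed 2-fold (25.9%), 42 of 65 changed 4-fold (64.6%) and 62 of 64 changed 8-fold (96.9%). Of 282 unchanged features 8 were called (2.84%). A change near 2-fold that was not called may therefore have been missed.

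Each sheep gave both depots, so the libraries are paired by animal; after group means were subtracted, the median r was 0.03 for libraries of 1 sheep and 0.08 for those of different sheep. Replicate libraries differed beyond sampling noise, with a chi-square per degree of freedom of at least 35.7. Reads of PCR-amplified libraries are not independent molecules. Gene positions relative to one another come from a RefSeq gene table (ARS-UI_Ramb_v3.0), which matched 105 microRNAs, 621 snoRNAs, 1010 snRNAs and 1404 lncRNAs. Named features are the called microRNAs (up to 12 in each direction), up to 4 of each other class in each direction, 2 to 4 members of each list by p and the most abundant microRNAs. The comparison, lists and members were chosen with earlier results of these data known. Types of spliceosomal snRNA could not be assigned and that list was not used. Alternatives were the deposited scale, CPM, pseudocounts of 0.5 and 5, other filters, no block, a term for library set, subsets of libraries, the other tools and 1 fit over all classes.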

Additional observations from a re-analysis of the deposited data

Results flagged for a closer look

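In 16 of 140 groups of 4 libraries examined, 1 library lay far from the other 3 by Dixon's criterion; chance flags about 1 in 20 groups. The perirenal library of sheep 098, which is the later and shallowest perirenal library, was low for MIR3959 (3.87 rescaled reads, near the floor of this library). It was also low for MIR17 (23.2), MIR10B (4235), MIRLET7F (14123), MIR26B (4673) and MIR152 (414). It was high for MIR106B (2954 rescaled reads), MIR30D (6918) and MIR200C (27.1), and for its share of snoRNA reads (2.42%). The later subcutaneous library, sheep 201, was low for MIRLET7F (9168 rescaled reads) and high for LOC105606646 (290) and for the DLK1-DIO3 share of microRNA reads (0.669%). Sheep 132 was low for MIR26A in perirenal fat (43142 rescaled reads), low for MIRLET7A in subcutaneous fat (128659) and high for MIR21 in subcutaneous fat (4343). The cause was not tested.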

How the results depend on the processing

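No called feature changed direction under any alternative in which it could be tested. Against 26 calls (17 higher, 9 lower), the values as deposited gave 52 (48 and 4), CPM 28 higher and 5 lower, no filter 43 (35 higher), a filter at 20 left 11 higher, and DESeq2 gave 43 (27 and 16) and edgeR 38, both with all 26 among them. The fit with no replicate block gave 33 calls, 16 higher and 17 lower, 23 of them shared; in prenatal T sheep it gave 57 calls, 13.5% of the features tested, against 99 calls (23.5%). A term for library set gave 84 calls with the replicate block (38 and 46) and 93 without it (44 and 49), the early libraries alone with no replicate block 96 (55 and 41), sheep 131 and 132 alone 36 (22 and 14), and 1 fit over all classes 0 (0 higher, 0 lower). Leaving out 1 sheep gave 3 to 47 calls, 1 to 31 higher and 1 to 16 lower, in control sheep, and 0 to 1 for the difference between the contrasts. In prenatal T sheep it left 5.95 to 25.8% of the features tested called, and with no filter 72 of 2715 were called higher and 34 lower. Pseudocounts of 0.5 and 5 gave 26 calls each. The cause of these shifts was not tested, except that a stricter filter tests fewer features. The shallow perirenal library of sheep 098, with 283463 reads, limits the precision of low features.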

Other observations

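Outside the naming rule, and chosen after its values were seen, the snoRNA LOC114109253 within the splicing factor gene PRPF39 had log2 fold changes of -1.69 in prenatal T sheep (limma adjusted p = 0.000409) and -1.67 in control sheep (limma adjusted p = 0.138), perirenal over subcutaneous. The snRNA LOC114111395 had log2 fold changes of 1.62 in prenatal T sheep (limma adjusted p = 0.016) and 1.45 in control sheep (limma adjusted p = 0.302).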
